A study of Caenorhabditis briggsae with 10 samples.

Results

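The genes described here are the 150 that differed most, and in the same direction in both strains, between the 2 cold replicates of the nematode Caenorhabditis briggsae. They were chosen from the raw counts. For each gene the log2 ratio D of cold replicate 2 over cold replicate 1 was taken in each strain, on counts scaled to a common library total (CPM) with 0.5 added. Those averaging 5 CPM or more over the 4 cold libraries, with D of the same sign in both strains, were ranked by the smaller absolute D. Of the 23175 genes in the table, 7777 had this mean CPM, 5329 of them had D of the same sign, and the first 150 of these are the replicate-variable genes.

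RNA was taken from whole worms of 2 wild-type strains, AF16 of tropical and HK104 of temperate origin, and of their hybrid. All worms were synchronised as mid to late L4 larvae and then grown for 24 hours at 20 °C. Cold worms were next kept for 60 hours at 4 °C, and control worms were collected without that step, so cold and control worms also differ by the time elapsed. Each strain had 2 cold and 2 control libraries and the hybrid 1 of each. In the labels' descriptions both cold replicate 1 libraries carry an unexplained suffix absent elsewhere, so suffix and replicate number cannot be told apart in the cold. AF16 cold replicate 2 is marked with a different lane of the sequencer from the rest, where one is given, and the part of that in the results was not tested. Parental libraries held between 15360979 and 18362210 counts, the hybrid cold library 6008659 and the hybrid control library 5334965 reads assigned to an allele. Nothing in the labels says that replicates were separate cultures, so p-values measure the spread between these libraries only.

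Caenorhabditis briggsae is a self-fertile relative of Caenorhabditis elegans, and its adults carry a germ line, oocytes and embryos beside the body tissues. Cold slows growth and egg laying in such animals, which do not regulate their body temperature. Replicate libraries of one condition can differ through the animals, their exact stage and the handling of the sample as well as through counting. A whole-worm library averages over all of these tissues, and fewer cells of a type cannot be told apart from less RNA per cell. The files identify genes by WormBase ID without symbols, so no role or position is given for any gene named here and the defining markers of tissues could not be checked.

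All 150 replicate-variable genes were lower in cold replicate 2 than in cold replicate 1, and 0 were higher. The rule allowed either direction and used these values, so they are described without a test. In AF16, D ranged from -2.22 to -1.07 with a median of -1.36, which means that the first cold library held 2.57 times the level of the second at the median gene. In HK104, D ranged from -2.07 to -1.06 with a median of -1.29, a ratio of 2.45. Over the 7777 genes the medians were -0.10 in AF16 and -0.11 in HK104. The next 150 genes by rank were also all lower in cold replicate 2, and the first gene higher in it, WBGene00029887, stood at rank 529 with a smaller D of 0.79.

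The library scaling affects this asymmetry. With scaling by trimmed mean of M-values (TMM), a correction for library composition, the median D of the 7777 genes moved up by 0.26 in AF16 and by 0.12 in HK104. The 150 genes remained lower in cold replicate 2 of both strains under it, with D of at most -0.81 in AF16 and -0.94 in HK104. The majority among all 7777 genes did not hold: by total counts 3321 genes were lower and 2008 higher in cold replicate 2 of both strains, while with TMM 2457 were lower and 3189 higher. When the rule itself was run on TMM-scaled CPM, 144 of its 150 genes were lower and 6 were higher, and 122 of the original genes were kept.

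The first gene by rank was WBGene00031349. It had 4.52 CPM in AF16 cold replicate 2 and 16.9 in cold replicate 1, against 2.15 in AF16 control replicate 2 and 8.69 in control replicate 1. HK104 had 0.252 and 2.67 CPM in cold replicates 2 and 1, against 0.463 and 2.21 in the controls in the same order, on 4 and 42 cold counts. At this gene replicate 1 was higher in all 4 groups, and cold and control libraries overlapped in both strains.

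WBGene00028924, the next by rank, also had replicate 1 higher in every group, but without such an overlap. It had 7.95 CPM in AF16 cold replicate 2 and 28.1 in cold replicate 1, against 47.9 and 61.4 CPM in AF16 controls. HK104 had 4.34 and 15.9 CPM in cold replicates 2 and 1, against 43.7 and 49.7 CPM in controls. Both cold libraries lay below both controls in each strain, and the controls differed less from each other than the cold libraries did. The edgeR log2 fold change after cold was -1.75 ± 0.54 (SE; edgeR FDR = 0.0418) in AF16 and -2.25 ± 0.56 (SE; edgeR FDR = 0.0169) in HK104, with FDR the p adjusted over all genes. The AF16 call was lost without AF16 cold replicate 2, without either AF16 control, by the DESeq2 test and with another scaling, and the HK104 call without HK104 cold replicate 2.

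At the limit of the list, WBGene00028286 (rank 150) had D of -1.23 in AF16 and -1.06 in HK104. WBGene00031202, the next by rank and just outside, had -1.36 in AF16 and -1.06 in HK104. The ranking is thus continuous there and the number of 150 marks no gap.

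The depth behind D was as follows. The median count in cold replicate 2 was 122.5 in AF16 and 155 in HK104, and in cold replicate 1 it was 293 in AF16 and 378.5 in HK104. At the median gene the counting standard error of D was 0.15 in AF16 and 0.14 in HK104. The fewest counts in cold replicate 2 were 9 in AF16 and 2 in HK104. Counting error does not include differences between animals or library preparations.

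**Figure D1:**
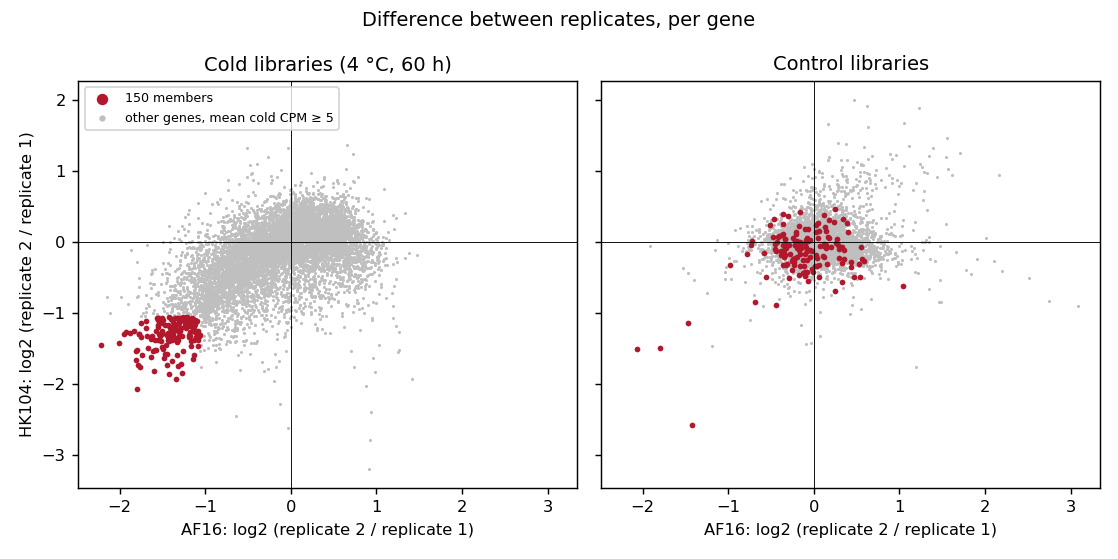
Each point is a gene, with the log2 ratio of replicate 2 over replicate 1 in AF16 (x axis) and in HK104 (y axis), for cold libraries (left) and control libraries (right). Red points are the 150 genes and grey points the other genes with a mean cold CPM of at least 5. The red points fill the lower left corner in the cold by the rule. In the controls most lie near zero, with 71 of the 150 below 0 in both strains. There 4 genes lie far to the lower left, and the highest AF16 difference is 1.05.

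The genes were of modest abundance. Their mean cold CPM had a median of 15.9, beside 61.2 for the 7777 genes, and when those genes were divided into 3 equal bins by mean cold CPM, 103 of the 150 lay in the lowest bin, 33 in the middle and 14 in the highest. In controls the medians were closer, at 28.4 CPM for the 150 genes and 53.3 for all 7777. Together the 150 genes took 0.444% of the counts in AF16 cold replicate 2 and 1.19% in cold replicate 1, against 1.29% and 1.25% in AF16 control replicates 2 and 1. In HK104 they took 0.615% in cold replicate 2 and 1.53% in cold replicate 1, against 1.18% and 1.20% in the controls. The hybrid libraries gave 1.28% in the cold and 1.74% in the control. By these sums the second cold library lay well below the controls in each strain, while the first lay slightly below them in AF16 and above them in HK104. Leaving out the most abundant of the 150 genes in each library gave 0.921% in AF16 cold replicate 1 against 1.14% in both AF16 controls.

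The same difference was then examined in the control libraries, which the rule did not use. There the replicate difference, again replicate 2 over replicate 1, was small at the median gene, -0.12 in AF16 and -0.11 in HK104, where the 7777 genes had 0.00 and -0.01. Its median absolute size was 0.23 in AF16 and 0.18 in HK104, where the 7777 genes had 0.14 and 0.09. Fewer counts widen this size, and the 150 genes had a median of 28.4 CPM in controls, against 53.3 for the 7777. The part of depth in it was not tested. The control difference was below 0 in both strains at 71 of the 150 genes (47.3%), against 25.0% of the 7777. A difference as large as that of the last of the 150 genes, of either sign but the same in both strains, was found at 13 of the 7777 genes in controls. Only 5 of the 7777 had a control difference below -1 in both strains, the direction of the 150 genes in the cold.

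The control difference was tested with edgeR's quasi-likelihood test on the 4 control libraries with strain as a block. At a Benjamini-Hochberg adjusted p (FDR) below 0.05, 2 of the 150 genes were lower in replicate 2 and 0 were higher, where 0.0847% of 12980 tested genes were called lower, 0.347% higher and 0.431% in either direction. Without adjustment 25 of the 150 genes had a p below 0.05, beside 5.36% of all tested genes, and 22 of the 25 were lower, beside 2.07%. The fitted log2 difference was below 0 at 104 of the 150 genes and at 49.5% of all tested genes. The shift of the 150 genes in controls therefore had the direction of the cold difference and a much smaller median size. The 2 calls were made at the total-count scaling too, and without the strain block 0 genes were called.

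Both called genes had few counts in HK104. WBGene00270887 (rank 6) had 2.15 CPM in AF16 control replicate 2 and 10.6 in replicate 1, and 0.289 and 1.76 CPM in HK104 controls, a log2 difference of -2.37 ± 0.33 (SE; edgeR FDR = 0.0161). WBGene00031349, described above, had a control difference of -2.09 ± 0.32 (SE; edgeR FDR = 0.0254), which the DESeq2 test did not call. In the other direction the smallest p-values were at WBGene00032010, with 158 and 88.1 CPM in control replicate 2 of AF16 and HK104 against 120.4 and 73.1 CPM in replicate 1 (edgeR FDR = 0.432), and at WBGene00036416 (edgeR FDR = 0.472), and neither passed.

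A small set of genes carried a large replicate difference in the controls too. A control difference below -1 in both strains occurred at 5 of the 7777 genes, and 4 of them were among the 150: WBGene00031349, WBGene00270887, WBGene00036490 and WBGene00039559. They were picked out after their values had been seen. All 4 passed the mean cold CPM minimum of 5 mainly through AF16 cold replicate 1, where they had 15.8 to 16.9 CPM. Their other cold libraries held at most 5.99 CPM. At this level the filter favours genes high in cold replicate 1, so the overlap with the 150 genes is not independent of the rule. WBGene00036490 had 4.19 and 15.8 CPM in AF16 cold replicates 2 and 1, against 2.26 and 7.16 CPM in the controls, and 0.378 and 2.03 CPM in HK104 cold replicates 2 and 1, against 0.52 and 1.76 CPM in the controls. WBGene00039559 had 5.99 and 16.5 CPM in AF16 cold replicates 2 and 1 and 4.12 and 11.9 CPM in the controls. In HK104 WBGene00039559 had at most 2.84 CPM in any library. All 4 were higher in AF16 than in HK104 at every replicate number and condition, and held at most 10 reads in either hybrid library. The fifth gene, WBGene00025554, missed the list with D of -0.64 in HK104.

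The cold libraries were also set against the controls. The rule fixes that cold replicate 2 lies below cold replicate 1, but not where the controls lie. Relative to the mean of the controls of the same strain, the 150 genes had a median log2 ratio of -1.84 in AF16 cold replicate 2 and of -0.41 in cold replicate 1. In HK104 the medians were -1.32 in cold replicate 2 and 0.02 in cold replicate 1. The medians of the 7777 genes were 0.16 and 0.14 in AF16 and 0.18 and 0.19 in HK104, in the same order. The control mean lay above both cold libraries at 98 of the 150 genes in AF16 and at 75 in HK104, where nearness to cold replicate 1 follows from the rule. Where it lay between the cold libraries, it was nearer to cold replicate 1 at 19 of 41 genes in AF16 and at 37 of 51 in HK104. Which cold library is typical of the treatment cannot be told from these data.

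**Figure D2:**
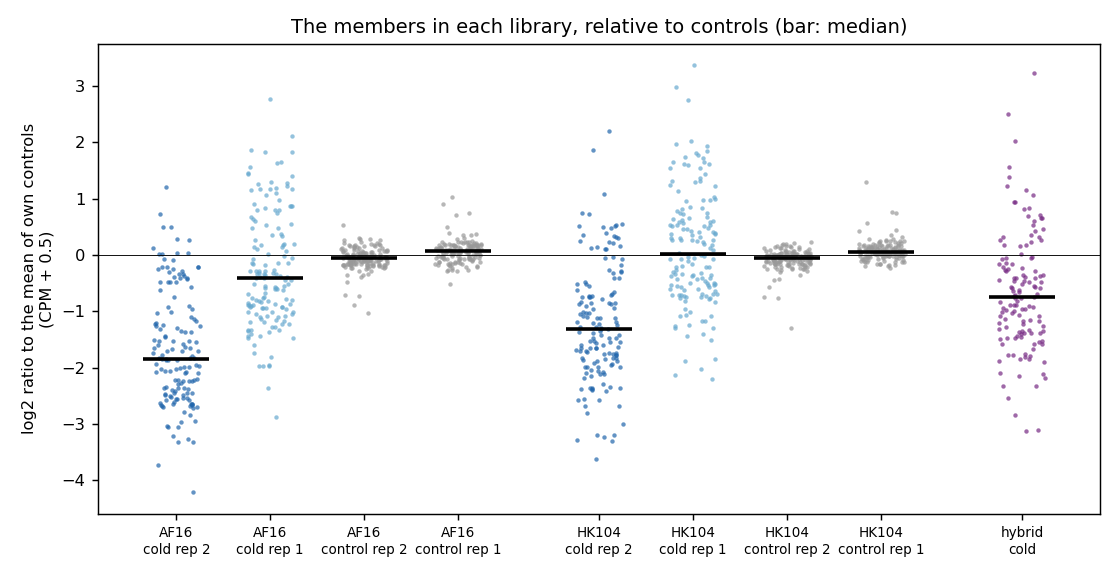
Each point is one of the 150 genes, with its log2 ratio (CPM + 0.5) to the mean of the controls of its own strain in each library; for the hybrid it is the ratio of the cold to the control library at the 134 genes holding 20 or more assigned reads in total. Bars are medians: -1.84 and -0.41 in AF16 cold replicates 2 and 1, -1.32 and 0.02 in HK104 cold replicates 2 and 1, and -0.74 in the hybrid.

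The individual genes followed several patterns beneath these medians. At 70 of the 150 genes (46.7%) the control mean lay above both cold libraries in both strains, against 15.9% of the 7777. At 21 genes (14.0%) it lay between the cold libraries in both strains, against 3.39%, and at 8 genes (5.33%) it lay below both cold libraries in both strains, against 40.6%. The other 51 genes were placed differently in the strains. Because the rule requires a wide gap between the cold libraries, a control level between them is more likely than at other genes.

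A strict form of the middle pattern, with cold replicate 2 below both controls and cold replicate 1 above both, was met by 34 genes in AF16, where 9.9% of the 7777 genes met it. In HK104 it was met by 45 genes, where 6.87% of the 7777 did, and 16 genes met it in both strains, where 1.66% did. Both cold libraries were below both controls at 93 genes in AF16 (19.1% of the 7777) and at 70 in HK104 (18.1%). Both were above both controls at 6 genes in AF16 (38.2%) and at 21 in HK104 (51.5%). Where cold and control libraries did not overlap, lower cold levels were thus the more frequent pattern among the 150 genes in each strain. Higher ones were more frequent among the 7777, on CPM by total counts. The 7777 were filtered on cold CPM alone, which favours genes that are higher in the cold. In edgeR with TMM their median log2 fold change was 0.13 in AF16 and 0.18 in HK104. Over all tested genes it was -0.06 and 0.01.

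The cold response was tested with edgeR's quasi-likelihood test over all 13503 genes that passed the filter on low counts, in 1 fit to the 8 parental libraries, and all 150 genes passed that filter. In AF16, 61 of the 150 genes fell after cold and 1 rose at an FDR below 0.05, where 20.1% of all tested genes were called lower and 2.78% higher, and 11.03% of the 7777 were called lower. In HK104, 24 fell and 8 rose, where 16.6% were called lower and 4.54% higher, so in this fit the HK104 shares of 16.0% and 5.33% were near those of all genes. Of the 7777 genes, 8.44% were called lower in HK104. In either direction 32 of the 150 genes were called in HK104, where 21.1% of all tested genes were. The DESeq2 test called 54, where 21.7% were, the fit with no filter on low counts 55, where 15.4% were, and the fit without HK104 cold replicate 1 called 45, where 14.2% were. The median log2 fold change of the 150 genes was -1.21 in AF16, where all tested genes had -0.06, and -0.56 in HK104, where they had 0.01. With DESeq2 size factors, under which the median of all genes in AF16 was 0.11, these medians were -1.01 and -0.54. The genes were chosen for a large spread between libraries of this fit, which enlarges their error in it, so these counts are not independent of the rule.

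In both strains together, 21 genes fell, where 13.1% of all tested genes fell in both, and 0 rose in both, where 1.6% did. A further 40 were called lower in AF16 without a call in HK104, and 3 lower in HK104 without a call in AF16. Another 8 were called higher in HK104 alone and 1 in AF16 alone, and 77 had no call in either. Over all 13503 tested genes, 2711 were called lower in AF16, 2239 in HK104 and 1775 in both strains. The numbers called higher were 376, 613 and 216, in the same order. A call in 1 strain alone is no test of a strain difference, which is given further on.

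Of the genes that fell in both strains, WBGene00042326 (rank 42) had the lowest mean log2 fold change. It had 9.26 and 24.0 CPM in AF16 cold replicates 2 and 1, against 175 and 187 CPM in AF16 controls. The HK104 levels were 17.9 and 55.2 CPM in the cold, against 142.7 and 150.5 CPM in controls. Its log2 fold change was -3.58 ± 0.48 (SE; edgeR FDR = 0.00058) in AF16 and -2.05 ± 0.45 (SE; edgeR FDR = 0.00911) in HK104. Both cold libraries lay below both controls in each strain.

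WBGene00035097 (rank 147) came next. It had 3.38 and 7.62 CPM in AF16 cold replicates 2 and 1 and 29.2 and 33.8 CPM in AF16 controls, a log2 fold change of -2.65 ± 0.41 (SE; edgeR FDR = 0.0013). In HK104 it had 5.03 and 13.3 CPM in the cold and 52.6 and 47.8 CPM in controls, a log2 fold change of -2.49 ± 0.40 (SE; edgeR FDR = 0.00169). Both genes were called in both strains under each of the 15 alternatives, with edgeR or DESeq2 FDR of at most 0.0444.

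The 1 gene that rose in AF16 was WBGene00032530, named after its values were seen. It had 15.1 and 45.3 CPM in AF16 cold replicates 2 and 1, against 5.45 and 7.16 CPM in controls, a log2 fold change of 2.11 ± 0.49 (SE; edgeR FDR = 0.0112), and the call was lost without AF16 control replicate 2. In HK104 it had 10.3 and 27.8 CPM in the cold, against 16.4 and 18.4 CPM in controls, so the cold libraries lay on both sides of the controls.

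Each cold library was also set alone against the controls of its strain, with the lone library assumed to vary like the other groups. The rule sets cold replicate 2 below cold replicate 1, so more lower calls and a lower median with cold replicate 2 follow from it, and each count is given only beside its share over all genes. With cold replicate 2 alone, 98 of the 150 genes were called lower in AF16, where 20.5% of all genes were, and 43 in HK104, where 12.7% were. With cold replicate 1 alone, 11 were called lower in AF16, where 10.8% were, and 6 in HK104, where 9.85% were. With cold replicate 2 alone 1 gene was called higher in AF16 (11.1% of all genes) and 2 in HK104 (1.51%). With cold replicate 1 alone 5 were called higher in AF16 (8.68%) and 15 in HK104 (4.13%). Over the 150 genes the median log2 fold change was -1.92 with cold replicate 2 and -0.48 with cold replicate 1 in AF16, and -1.47 and -0.09 in HK104. In either direction, leaving out a control library gave 39 or 40 calls in AF16, where 14.4% and 13.6% of all genes were called, against 62 with both, where 22.9% were. In HK104 it gave 18 calls without either control, where 12.5% and 11.8% were called, against 32 with both. Without AF16 cold replicate 1 there were 63 calls in HK104, where 28.3% of all genes were called.

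**Figure D3:**
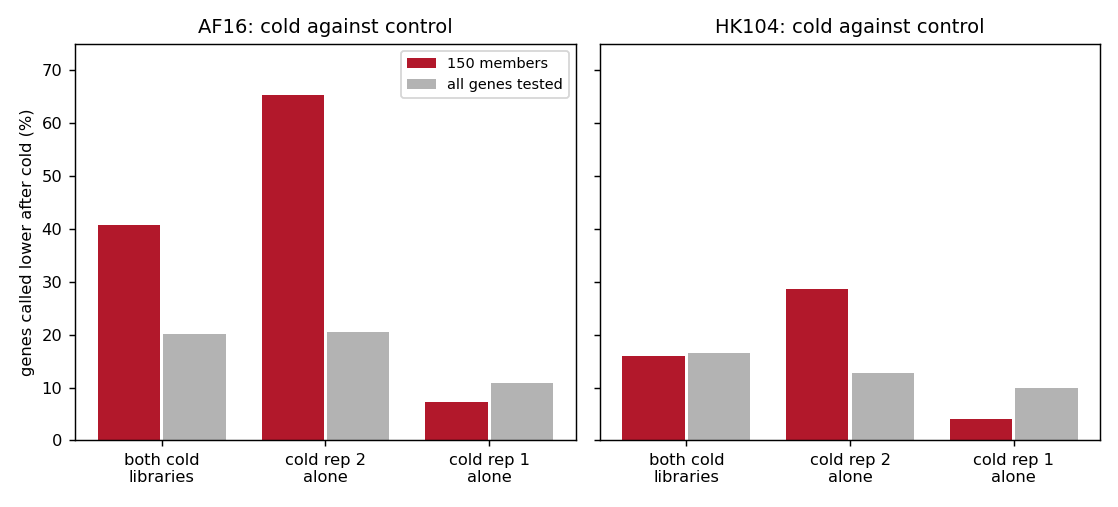
Bars give the percentage of genes called lower after cold (edgeR FDR below 0.05) among the 150 genes (red) and among all genes tested (grey), with both cold libraries and with each cold library alone, for AF16 (left) and HK104 (right). With cold replicate 2 alone the red bars reach 65.3% and 28.7%, and with cold replicate 1 alone 7.33% and 4.00%. The rule fixes the order of these 2 libraries, so the difference between their red bars restates it.

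The difference between the cold responses, HK104 minus AF16, was tested in the same fit. At an FDR below 0.05, 0 of the 150 genes were called by edgeR, where 0.496% of all tested genes were, and 0 by DESeq2. Without adjustment 15 of the 150 genes had a p below 0.05 in edgeR, beside 978 of the 13503 tested genes. The smallest FDR was 0.289. The rule enlarges the spread of the 150 genes in this fit, so the absence of calls does not show equal responses. The median difference was 0.56, beside 0.04 over all tested genes, and 25 of the 150 genes had a value below 0. Without AF16 cold replicate 2 this median was -0.14, and without HK104 cold replicate 1 it was -0.40, so its sign rested on single cold libraries.

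The strains were compared without cold as well. In controls 4 of the 150 genes were higher and 1 lower in HK104 than in AF16, where 3.01% of all tested genes were called higher, 4.0% lower and 7.01% in either direction. In a fit to the 4 control libraries alone, 20 were higher and 25 lower, where 17.0% of genes were called. The cold libraries that the rule used enlarge the spread of the 150 genes in the fit to all parental libraries, which lowers their calls there. They do not enter the fit to the controls alone. In the fit to all parental libraries the number of calls changed when single libraries were left out, among the 150 genes and among all tested genes. The median log2 difference of the 150 genes was -0.03, beside 0.01 for all tested genes. WBGene00030362 had 23.0 and 26.2 CPM in HK104 control replicates 2 and 1, against 6.73 and 6.61 CPM in AF16 controls, a log2 difference of 1.88 ± 0.38 (SE; edgeR FDR = 0.014). WBGene00270576 had 26.7 and 25.5 CPM in HK104 controls and 5.33 and 7.59 CPM in AF16 controls (log2 difference 2.01 ± 0.42, SE; edgeR FDR = 0.0161). The call of WBGene00030362 was lost without either AF16 control and without HK104 control replicate 1, and that of WBGene00270576 without AF16 control replicate 2. WBGene00025567 was the gene called lower in HK104, with 0.289 and 0.397 CPM in HK104 controls against 19.4 and 25.5 CPM in AF16 controls (log2 difference -6.0 ± 0.69, SE; edgeR FDR = 0.000543).

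The hybrid libraries took no part in the choice of the genes, and with 1 library per condition they allow no test. A total of 20 or more assigned reads was held by 134 of the 150 genes, and the other 16 were left out of the values that follow. The log2 ratio of hybrid cold to hybrid control had a median of -0.74, with quartiles of -1.38 and -0.09, against a median of 0.19 over 7448 of the 7777 genes with that minimum. It was below 0 at 104 of the 134 genes (77.6%), where 35.8% of those genes were. It was below -1 at 52 of the 134 genes, where 8.12% were, and above 1 at 8, where 7.2% were. The hybrid thus showed lower levels after cold at most of these genes, in a cold library that did not enter the rule.

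The hybrid was set between the parental cold replicates. The mean over strains of the log2 ratio to controls had a median of -1.59 with cold replicate 2 and of -0.30 with cold replicate 1 at the 134 genes. The hybrid lay between these at 115 genes, below both at 5 and above both at 14, in an interval that is wide by the rule. It was nearer to the value of cold replicate 2 at 43 genes (32.1%) and nearer to that of cold replicate 1 at 91, where 46.3% of the 7448 genes, whose D has either sign, were nearer to cold replicate 2. The titles number both hybrid libraries 1, while the descriptions give them the number that the parental libraries titled replicate 2 carry there, so the labels do not settle which parental replicate, if either, the hybrid matches.

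**Figure D4:**
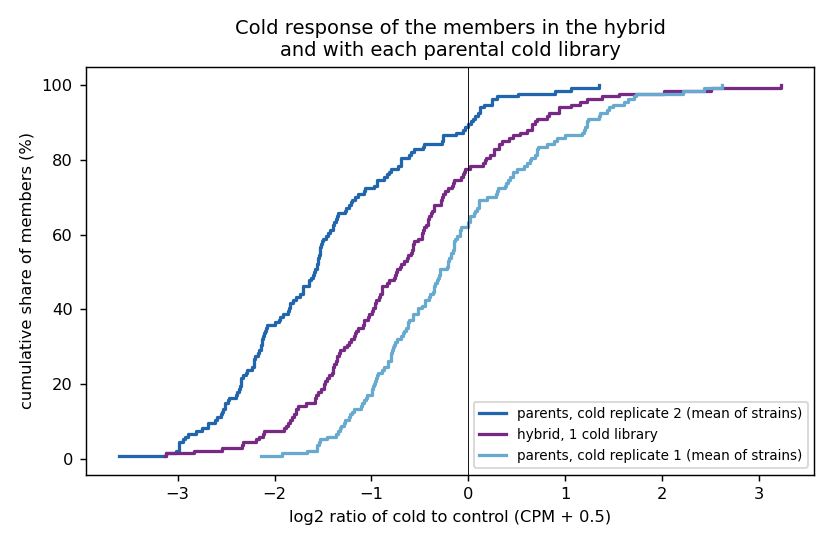
Lines give the cumulative percentage of the 134 genes holding 20 or more assigned hybrid reads (y axis) by log2 ratio of cold to control (x axis), for the mean of the strains with cold replicate 2, the hybrid, and the mean of the strains with cold replicate 1. The hybrid line runs between the parental lines, with medians of -1.59, -0.74 and -0.30 from left to right.

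The hybrid also followed the patterns seen against the parental controls. Among the genes whose control mean lay above both cold libraries in both strains, 66 of 67 with enough reads had a hybrid ratio below 0, and the median of the 67 was -1.36. Of the 7777 genes, 1167 were in this class with enough reads, and 1080 of them were below 0, with a median of -0.89. With the control mean between the cold libraries, 9 of 17 of the 150 genes were below 0 and had a median of -0.03, where 96 of 239 among the 7777 were, with a median of 0.09. With the control mean below both, 0 of 7 were below 0 and the median was 1.15, where 350 of 3071 were, with a median of 0.43. Most genes of the first and last class thus had the same direction in the hybrid, whether among the 150 or not. These classes were formed after the values were seen and share the control libraries only within the parental strains.

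At single genes the hybrid ratios spanned a wide range. WBGene00042326 fell to 288 reads in the hybrid cold library, against 2259 in the hybrid control, a log2 ratio of -3.13. WBGene00026151 had 73 reads in the cold and 582 in the control, a log2 ratio of -3.12, beside 2.12 and 7.94 CPM in AF16 cold replicates 2 and 1 against 13.7 and 22.8 CPM in AF16 controls. Both had parental cold libraries below their controls.

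The largest hybrid ratios among genes reaching 20 reads in each library were of the opposite sign. WBGene00088687 had 237 reads in the hybrid cold library and 35 in the control, a log2 ratio of 2.50. In HK104 it had 12.02 and 39.48 CPM in cold replicates 2 and 1 against 4.51 and 6.58 CPM in controls, a log2 fold change of 2.16 ± 0.55 (SE; edgeR FDR = 0.0182), and the call was lost without HK104 cold replicate 1 and without HK104 control replicate 2. WBGene00041865 had 1237 hybrid reads in the cold and 270 in the control, a log2 ratio of 2.01. It had 190.4 and 428 CPM in HK104 cold replicates 2 and 1 against 33.9 and 49.8 CPM in controls (log2 fold change 2.84 ± 0.43, SE; edgeR FDR = 0.00107). In AF16 WBGene00041865 had 64.1 and 165.7 CPM in the cold and 44.0 and 46.2 CPM in controls (log2 fold change 1.21 ± 0.40, SE; edgeR FDR = 0.0568), so all cold libraries lay above the controls at a gene with a large gap between them.

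**Figure D5:**
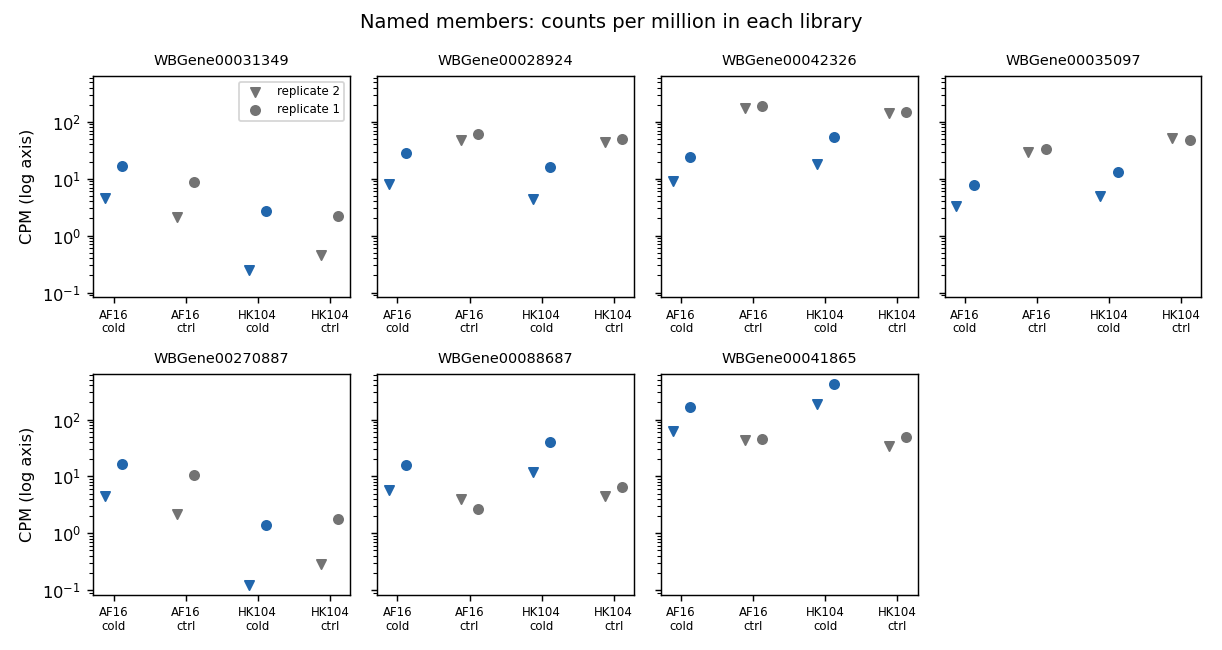
CPM on a log axis in each parental library for 7 of the named genes, with triangles for replicate 2, circles for replicate 1, blue for cold and grey for control. WBGene00028924, WBGene00042326 and WBGene00035097 lie below their controls in the cold, and WBGene00041865 lies above them. WBGene00031349 and WBGene00270887 have a log2 ratio of replicate 2 over replicate 1 below -1 in every group. Other genes shown, such as WBGene00028924, are also lower in replicate 2 in every group, by less in the controls.

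The balance of the hybrid alleles was examined at the 120 of the 150 genes that reached 20 assigned reads both in the cold and in the control. The AF16 allele held a median of 52.6% of reads in the cold (quartiles 47.1 and 60.2) and of 50.9% in the control (45.1 and 56.6). Over 6951 of the 7777 genes with the same minimum the medians were 50.6% in the cold and 50.8% in the control. The absolute change of the log2 allele ratio between the libraries had a median of 0.41 at the 120 genes and of 0.23 at the 6951. Fewer reads widen this measure, and the 150 genes had a median of 119.5 reads in the cold and 169 in the control, against 329 and 266 for the 7777 genes, so allele change and depth cannot be told apart.

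Across genes, which are not independent and share the libraries, the replicate differences were also compared between strains. Over the 7777 genes, D in AF16 and D in HK104 correlated with Pearson's r = 0.52 in the cold, and the control differences of the strains with r = 0.11. Within a strain, D in the cold and the control difference correlated with r = 0.31 in AF16 and r = 0.23 in HK104. Within the 150 genes, where the rule limits the range, D of the strains correlated with r = 0.29, and the control differences of the strains, which it does not limit, with r = 0.42.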

How the data were processed

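The deposited table of raw counts per gene covers the 8 parental libraries and 23175 WormBase gene IDs. A second table deposited by the authors holds counts of hybrid reads per allele, as its naming gives it, and the rule that assigned reads to alleles is not given in the sources used here. Cutadapt, HISAT2 2.2.0, HTSeq 0.11.1 and edgeR are listed in the submitters' processing notes. Build, annotation and strand setting are not given in the sources used here, so genes with near-identical copies or overlapping neighbours are uncertain. Of the IDs, 0 matched the supplied CB4 gene table, so names, positions, sequences and the planned gene lists were not used.

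CPM values were computed from total counts. Tests used edgeR 4.0.16 under R 4.3.3 (glmQLFit, glmQLFTest) with TMM and filterByExpr (minimum count 10), one coefficient per group, and Benjamini-Hochberg adjustment over all genes tested. DESeq2 1.42.0 was an alternative. The standard error is the absolute log2 fold change divided by the square root of F. Hybrid counts were summed over alleles. The fits were tested on simulated data.

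Named genes were at most 2 per direction and comparison, by rank, by mean log2 fold change among genes called in both strains, by p, or by hybrid ratio. The genes, lists and tests were chosen with earlier results of these data known. Intervals of counts cover counting error only.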

Additional observations from a re-analysis of the deposited data

How the results depend on the processing

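The number of the 150 genes called in the cold response depended on the processing. Against 62 calls in AF16 and 32 in HK104, total counts in place of TMM gave 29 and 18. DESeq2 size factors gave 51 and 28 and moved neither count by over 1.5 times. Over all genes the shares called were 22.9% and 21.1%, with total counts 19.8% and 17.7%, and with DESeq2 size factors 24.1% and 20.4%. In HK104 the DESeq2 test gave 54 (21.7% of all genes), no filter on low counts 55 (15.4%) and the 4 HK104 libraries alone 51 (25.5%). Leaving out 1 library gave 16 to 99 calls in AF16 and 18 to 63 in HK104. The median log2 fold change stayed below 0, from -1.92 to -0.48 in AF16 and from -1.47 to -0.09 in HK104. A term for cold replicate 2, added after seeing the data, gave 115 calls in AF16 (35.8% of all genes), 108 in HK104 (35.3%), 16 for the difference of the responses (1.51%) and 40 for the strain difference in controls (11.8%). The rule fixed that cold difference in both strains, so a term for it removes spread by construction. The cause of the other shifts was not tested.

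Replicate numbers are shared between the groups, but the labels tie no batch to them. The replicate differences of cold and control libraries correlated with r = 0.31 in AF16 and r = 0.23 in HK104 over the 7777 genes, and across strains with r = -0.10 and r = -0.17. A block for replicate number takes up part of the cold difference that the rule fixed in both strains. It thus removes spread by construction, as the term for cold replicate 2 does, so more calls with it are no test of a batch. With the replicate block the calls were 98 in AF16 (25.7% of all genes), 76 in HK104 (25.1%), 1 for the difference of the responses (1.07%) and 20 for the strain difference in controls (9.04%). That strain difference, 5 calls, became 10 with no filter (5.59% of all genes), 3 with total counts (5.63%) and 45 with the 4 control libraries alone (17.0%). Its calls also changed with 1 library left out, as did the share of all genes called. The control replicate difference, 2 calls, became 6 with DESeq2 size factors (1.14% of all genes), 7 with no filter (1.46%) and 0 without the strain block, and leaving out a library of that fit leaves no residual degree of freedom, so it was not run. The median difference of the responses, 0.56, turned to -0.14 without AF16 cold replicate 2 and to -0.40 without HK104 cold replicate 1, and reached 1.29 without AF16 cold replicate 1. The difference of the responses stayed at 0 calls in each fit that left out a library.

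Of the 150 genes, 62 were kept with a mean CPM minimum of 20, and 105 to 140 with a minimum of 2, another pseudocount or TMM. The number of genes with the control mean nearer to cold replicate 1, which the rule favours, changed little with scaling and pseudocount. It was 117 in AF16 and 109 to 112 in HK104. The hybrid libraries were scaled by total counts throughout, so TMM changed only the parental values set beside them. The hybrid was nearer to cold replicate 2 at 36 genes with TMM and at 42 to 45 with total counts. Its median log2 ratio was -0.79 to -0.57 over the pseudocounts. Having 2 libraries per group and 1 hybrid library per condition limits the precision throughout.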

Other observations

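The first gene higher in cold replicate 2 of both strains, WBGene00029887, was the counterpart of the 150 genes in the other direction and was named after its values were seen. It had 48.0 and 27.6 CPM in AF16 cold replicates 2 and 1, against 30.7 and 38.6 CPM in AF16 controls. In HK104 it had 66.4 and 35.2 CPM in the cold, against 52.5 and 51.9 CPM in controls. The cold libraries lay on both sides of the controls in both strains, with the second one above. Among genes higher in cold replicate 2 the 150th by rank had a smaller D of 0.38, where WBGene00028286, the 150th lower gene, had D of -1.06 in HK104, so the larger replicate differences by total counts lay on the lower side.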
